A study of Mus musculus with 18 samples.

Results

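The 10 genes described here are Wt1, Upk3b, Upk1b, Msln, Krt8, Krt18, Krt19, Lrrn4, Gpm6a and Cdh3, which are widely used to recognise epicardium and other mesothelium. They were followed in the count table of sorted cardiac fibroblasts, which lists 55453 gene symbols, and were chosen by their levels in the P10 resected against the P10 sham libraries. Their values in that contrast are therefore given as a description without a test.

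The epicardium is the mesothelial sheet on the outer surface of the heart. Mesothelial cells are flat epithelial cells that hold simple keratins and carry mesothelin and uroplakins at their surface. During development some epicardial cells lose these epithelial features, migrate inward and become fibroblasts and mural cells, and in the adult the layer is known to switch fetal genes such as Wt1 back on after injury.

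The cells were GFP+ cells sorted from hearts of Tcf21-MerCreMer; Rosa-mTmG pups, which had 1 copy of each allele by the study's methods and whose strain the labels give as C57BL/6J, all given tamoxifen at P1 (postnatal day 1). The Cre is driven from Tcf21, so GFP marks cells that had Tcf21 on at about that day and their descendants, and every group carried the same alleles and the same drug. There were 18 bulk RNA-seq libraries, 3 in each of 6 groups. P2 baseline and P10 baseline came from pups without surgery at those ages, and P2 sham, P2 resected, P10 sham and P10 resected came from pups that were operated on at the named age and sacrificed 3 days afterwards. The resected pups had lost the tip of the ventricles. Hearts were taken without atria and valves, from the apical part of the ventricles, and neither the number nor the sex of the pups behind a library is given in the sources used here. The labels call replicates separate samples without saying that they came from separate animals, so p-values measure only the spread between these samples.

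The libraries held 10462737 to 22980554 counts. Fibroblast markers, which the sort should hold, were abundant in all of them. Tcf21 lay between 203 and 447 CPM (counts per 1000000, scaled by the TMM method) and Pdgfra between 256 and 878 CPM, and neither was at 0 in any library. The summed level of 8 fibroblast markers was 54058 to 116802 CPM.

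All 10 epicardial and mesothelial genes were scarce beside those markers. Their mean levels over the 18 libraries ran from 0.446 CPM for Krt8 to 2.84 CPM for Msln, between the 9.89th and the 29.1st percentile of the 16170 genes tested. All 10 passed the filter on low counts, which asks for 0.512 CPM in 3 libraries. Krt8 passed only through P10 resected, the group that led to the choice of genes, since 2 libraries elsewhere reached that level. The other 9 pass without P10 resected as well, and counts and medians in the tested comparisons below rest on these 9, with Krt8 given by its values alone. Together they had 4924 counts, and 86 of their 180 values (47.8%) were 0, against 8.76% of the values of all genes tested. A library without a count could still hold a level of up to 0.128 to 0.296 CPM, the worth of 3 counts at its depth. Such floors take in counting error alone, because the reads carry no molecular identifiers and need not stem from separate molecules. In bulk cells, fewer cells of a type and less RNA per cell cannot be told apart.

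Per kilobase of exon the order of the mean levels was Msln (0.926 RPKM, CPM per kilobase), Krt19 (0.744), Upk3b (0.572), Cdh3 (0.570), Gpm6a (0.542), Upk1b (0.489), Krt18 (0.341), Krt8 (0.228), Wt1 (0.193) and Lrrn4 (0.162). Neighbours in this order differed by far less than the spread over libraries, which for Msln alone ran from 0 to 4.70 RPKM. The fibroblast marker Tcf21 averaged 123 RPKM on the same scale.

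**Figure D1:**
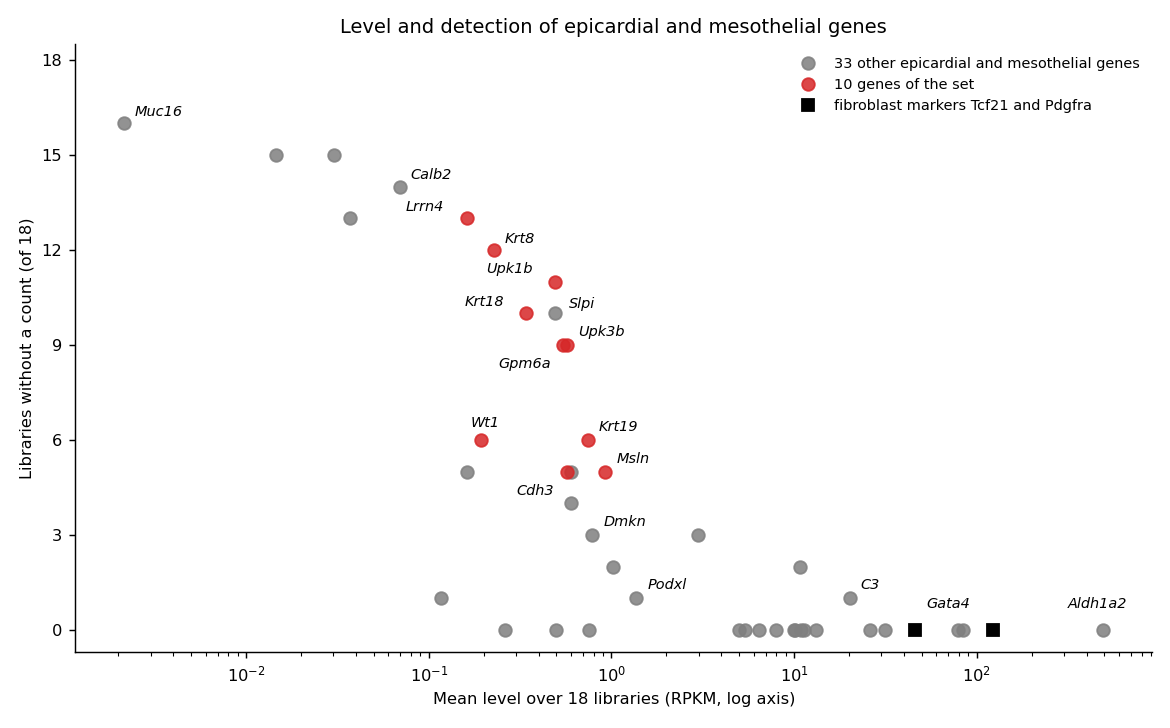
Mean level over the 18 libraries (x axis, RPKM, log scale) against the number of libraries without a count (y axis, of 18) for the 10 genes (red), 33 other epicardial and mesothelial genes (gray) and the fibroblast markers Tcf21 and Pdgfra (black squares). The 10 genes lie between 0.162 and 0.926 RPKM with 5 to 13 libraries at 0, whereas Aldh1a2 and Gata4 had counts in every library.

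Replicates of a group disagreed widely on these genes. The biological coefficient of variation estimated by edgeR was 1.16 to 2.39 (median 1.91), whereas the median of all genes tested was 0.437. In all 10 it also lay above the trend fitted for genes of the same abundance, which was 0.899 to 1.41. Of the 60 combinations of a gene and a group, 11 had no count in any of the 3 libraries and only 10 had counts in all 3. When the 6 groups were ordered by mean CPM for each gene, the ranges of neighbouring groups overlapped in 49 of 50 cases. The exception was Krt8, where P2 resected lay above P2 baseline, whose libraries were all at 0. The same count was not made over all genes tested, so it cannot set these genes apart.

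Wt1 (chr2:105126529-105173616, + strand, GRCm38), the zinc-finger transcription factor that is needed for epicardial development, was measured at 2.58, 3.49 and 0 CPM in P2 baseline replicates 1, 2 and 3. It was at 2.04, 0 and 0.783 CPM in P2 sham and at 2.05, 0.940 and 2.59 CPM in P2 resected. No P10 baseline library had a count of Wt1. P10 sham held 0, 0.970 and 1.93 CPM, and P10 resected 2.88, 0.127 and 1.17 CPM. Wt1 thus had counts in all 3 libraries of both resected groups and in none at P10 baseline, although each group's range overlapped that of its neighbour in level. The value of P10 resected replicate 2 is 2 counts, under the floor of 3, so that library cannot be told from a library at 0.

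Upk3b and Upk1b encode uroplakins, membrane proteins first known from the bladder lining that mesothelium also makes. The promoter of Upk3b is shown because this gene reached the highest CPM of the set (per kilobase, its peak of 4.67 RPKM lay just under those of Krt19 at 4.85 and Msln at 4.70 RPKM), with the part ahead of the start of transcription that RefSeq gives (GRCm38.p6, chr5:136038246-136038495, + strand). The capitals mark CATTCC, the letters bound by TEAD factors, which begins 241 bases before the start.

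Upk3b: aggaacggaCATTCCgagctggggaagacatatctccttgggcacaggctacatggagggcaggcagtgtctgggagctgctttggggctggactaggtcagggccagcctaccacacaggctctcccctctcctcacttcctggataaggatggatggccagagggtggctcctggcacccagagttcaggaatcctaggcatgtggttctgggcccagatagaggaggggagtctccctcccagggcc

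These letters stand, on either strand, in 12.6% of 32851 mouse promoters of the same length, and their presence is a description and not a measured binding site. The sequence GNGGGNGNG, a short form of the WT1 motif, occurs in 40.1% of promoters and was not in this window. Upk3b (chr5:136038496-136046487, + strand) was at 1.80, 0 and 0 CPM in P2 baseline, at 1.90, 6.69 and 0 CPM in P2 sham and at 2.58, 1.45 and 0 CPM in P2 resected. It was at 0, 0 and 0.395 CPM in P10 baseline, at 0, 2.20 and 0 CPM in P10 sham and at 16.5, 2.86 and 0 CPM in P10 resected. One library, P10 resected replicate 1, held 46.2% of all 718 counts of Upk3b, and every group contained at least 1 library at 0. Upk1b (chr16:38773184-38800328, - strand) had counts in only 7 libraries. At P2 these were 1.89 CPM in baseline replicate 3, 5.26 CPM in sham replicate 2, and 0.762 and 0.299 CPM in resected replicates 1 and 2. At P10 they were 0.472 CPM in sham replicate 3 and 7.60 and 2.10 CPM in resected replicates 1 and 2, with none in P10 baseline. Both uroplakins were therefore highest in P10 resected replicate 1 and next in P2 sham replicate 2.

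Msln (chr17:25748613-25754378, - strand) encodes mesothelin, a surface glycoprotein that gives the mesothelial marker its name. It was at 6.95, 0 and 3.78 CPM in P2 baseline, at 0, 6.96 and 0 CPM in P2 sham and at 4.34, 2.14 and 0.936 CPM in P2 resected. At P10 it was at 0, 0.482 and 1.48 CPM in baseline, at 0, 5.63 and 1.65 CPM in sham and at 14.4, 0.445 and 1.86 CPM in resected libraries. Msln was the most abundant of the set per kilobase, yet P2 sham rested on 1 library. A stretch of its transcripts is shared at high identity with 125 other genes, so reads there may have been left out as mapping to several places.

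Krt8, Krt18 and Krt19 encode the keratins of simple epithelia, and the proteins of Krt8 and Krt18 pair with each other in 1 filament. Krt8 (chr15:101996698-102004482, - strand) and Krt18 (chr15:102028180-102032027, + strand) lie next to each other, and the starts that RefSeq gives are 23.9 kb apart. Krt8 was at 0 in every baseline library and in P10 sham. It was at 0, 3.09 and 0 CPM in P2 sham, at 0.410, 0.128 and 0.826 CPM in P2 resected and at 2.24, 1.33 and 0 CPM in P10 resected. Krt18 was at 0.276, 0 and 0 CPM in P2 baseline, at 0, 1.34 and 2.02 CPM in P2 sham and at 0.117, 0.897 and 1.16 CPM in P2 resected. It was at 0 in P10 baseline, at 0, 0.323 and 0 CPM in P10 sham and at 2.68, 0 and 0 CPM in P10 resected. The partners did not always occur together, since P10 resected replicate 2 held Krt8 without a count of Krt18 and P2 sham replicate 3 the reverse.

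Krt19 (chr11:100140810-100148665, - strand) was the keratin with the highest level. It was at 3.41, 0 and 0.122 CPM in P2 baseline, at 0, 2.03 and 0.783 CPM in P2 sham and at 1.11, 1.03 and 0 CPM in P2 resected. At P10 it was at 0, 1.71 and 1.38 CPM in baseline, at 0, 0 and 0.613 CPM in sham and at 9.0, 2.73 and 0.932 CPM in resected libraries. It is 1 of the 2 genes of the set whose P10 resected libraries all lay above the P10 sham libraries, as 5.63% of all genes tested did. The lowest resected library held 0.932 CPM (12 counts) and the highest sham library 0.613 CPM (13 counts). The order of these 2 libraries thus rests on the scaling to library size. The counts were made without strand, and 5.16% of the exon bases of Krt8 overlap an antisense RNA, Gm36026, which had no count. The processed pseudogene Krt8-ps, nearly identical to Krt8 over part of the transcript, had none either.

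Lrrn4, a leucine-rich repeat membrane protein, had counts in 5 libraries, the fewest of the set. Its promoter (GRCm38.p6, chr2:132880863-132881112, - strand) is printed because it holds both a TEAD-type and WT1-type sequences. The promoters of Gpm6a, Krt18 and Krt8 hold no CATTCC on either strand, and of these only that of Krt18 holds GNGGGNGNG. The capitals mark overlapping matches to GNGGGNGNG, which begin 217 and 215 bases before the start, and GGAATG, the other strand of CATTCC, which begins 196 bases before it.

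Lrrn4: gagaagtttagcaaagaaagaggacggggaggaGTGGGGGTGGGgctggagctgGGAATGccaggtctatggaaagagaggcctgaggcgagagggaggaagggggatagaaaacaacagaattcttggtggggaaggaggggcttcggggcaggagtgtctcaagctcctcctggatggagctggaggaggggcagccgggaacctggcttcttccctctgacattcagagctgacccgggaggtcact

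Lrrn4 (chr2:132868305-132880891, - strand) was at 3.22 CPM in P2 baseline replicate 1, at 0.938 and 1.15 CPM in P2 resected replicates 1 and 2, and at 4.08 and 1.46 CPM in P10 resected replicates 1 and 2. All sham libraries and all P10 baseline libraries were at 0.

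Gpm6a (chr8:54954843-55060871, + strand), a membrane glycoprotein of the proteolipid family that is best known from neurons, was at 4.05, 0 and 1.95 CPM in P2 baseline, at 0, 11.3 and 1.44 CPM in P2 sham and at 0, 0.513 and 0.771 CPM in P2 resected. It was at 0, 0.589 and 2.57 CPM in P10 baseline, at 0 in all of P10 sham and at 8.25, 0 and 0 CPM in P10 resected. Thus 1 library held every count of this gene after P10 resection. Cdh3 (chr8:106510891-106557297, + strand) encodes P-cadherin, a cell-to-cell adhesion protein. It was at 4.10, 2.14 and 0.548 CPM in P2 baseline, at 0, 0.0922 and 2.15 CPM in P2 sham and at 2.29, 5.81 and 11.7 CPM in P2 resected. It was at 1.15, 0 and 1.38 CPM in P10 baseline, at 0 in all of P10 sham and at 3.13, 8.20 and 2.33 CPM in P10 resected. Cdh3 stood apart from the rest of the set in that its highest libraries were P2 resected replicate 3 and P10 resected replicate 2, and the resected libraries lay above the sham libraries at both ages.

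**Figure D2:**
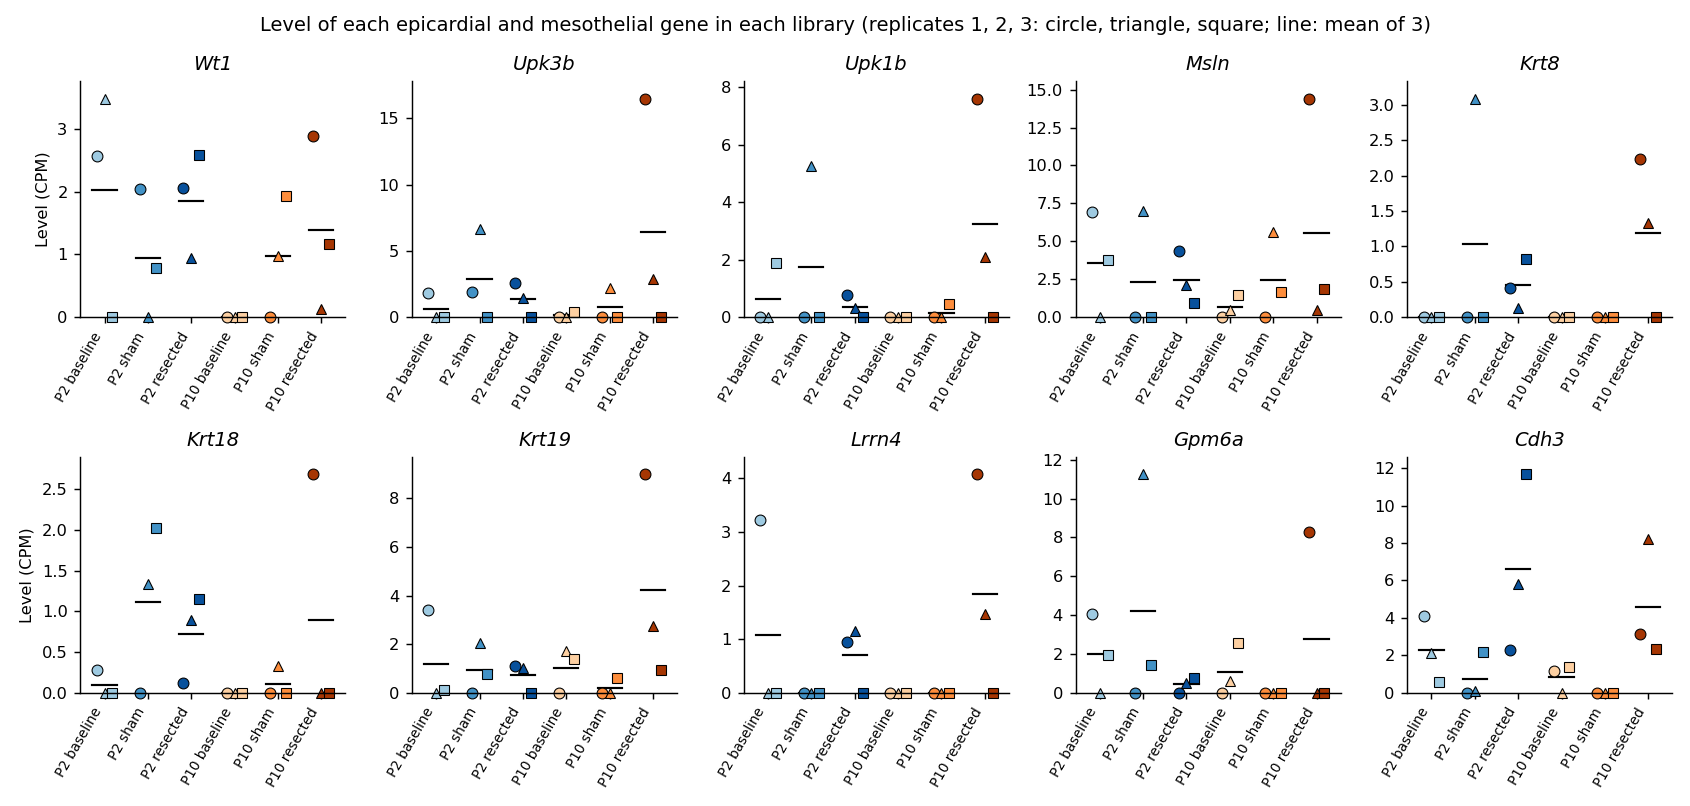
Level of each of the 10 genes (CPM, linear axis, scale set per gene) in the 6 groups. Circles, triangles and squares are replicates 1, 2 and 3 and the line is the mean of 3. P10 resected replicate 1 (dark brown circle) is the highest library for 6 genes, for example 16.5 CPM of Upk3b, whereas Wt1, Krt8, Gpm6a and Cdh3 peak elsewhere.

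The summed level of the 10 genes showed how unevenly they were spread over libraries. P10 resected replicate 1 held 70.8 CPM and 28.9% of all counts of the set. Next came P2 sham replicate 2 with 36.7 CPM, P2 baseline replicate 1 with 26.4 CPM and P10 resected replicate 2 with 19.3 CPM. The other libraries held 17.9 CPM or less, and P10 sham replicate 1 had no count of any of the 10. All 10 genes had counts in only 2 libraries, P10 resected replicate 1 and P2 resected replicate 2. The mean sums were 13.4 ± 11.3 (SD, n = 3) CPM in P2 baseline, 15.9 ± 18.1 in P2 sham, 15.6 ± 2.01 in P2 resected, 3.71 ± 3.13 in P10 baseline, 4.60 ± 4.56 in P10 sham and 32.1 ± 34.1 in P10 resected. P2 resected was the most even group, since its libraries lay between 14.4 and 17.9 CPM and 25 of its 30 gene and library combinations had counts, against 15 each in P2 sham and P2 baseline. Detection of all genes differed as well. The number of genes expected at the depth of the smallest library was 19510, 18299 and 18879 in P2 resected replicates 1, 2 and 3. It was 16543, 15710 and 16704 in P2 sham and 17471, 17205 and 15749 in P2 baseline. What part this had in the counts of the 10 genes was not tested.

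**Figure D3:**
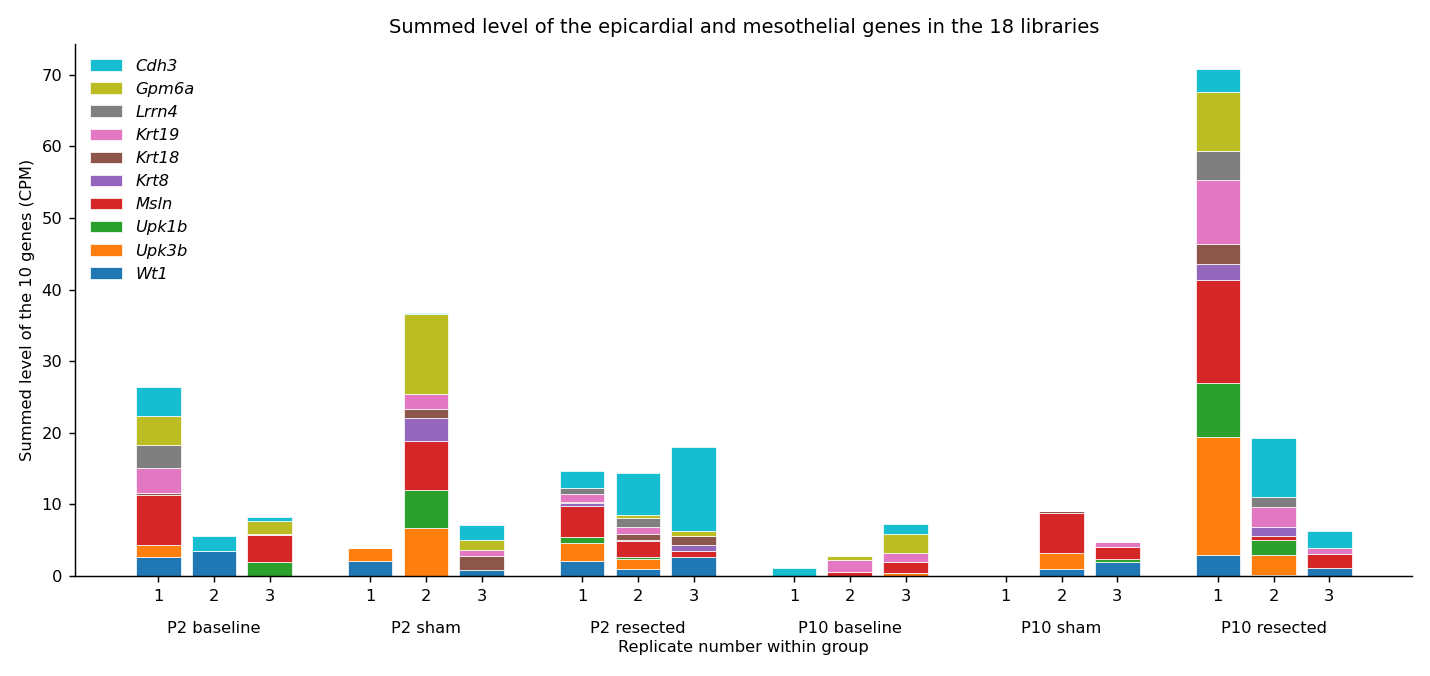
Summed level of the 10 genes (CPM, bars from 0) in the 18 libraries by group and replicate, with 1 color for each gene. P10 resected replicate 1 reaches 70.8 CPM, P2 sham replicate 2 reaches 36.7 CPM, and P10 sham replicate 1 is at 0.

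P10 baseline was compared with P2 baseline to ask how the genes differ with age in hearts without surgery. At P10 the fitted level was lower for 9 of the 10 genes and higher for none, and Krt8 had no count at either age. Without P2 baseline replicate 1, Upk3b, Krt19 and Gpm6a turned higher at P10 (log2 fold changes 4.12, 4.0 and 0.10), as did Krt19 without P10 baseline replicate 1 (0.39). With the replicate block Upk3b (2.04) and Krt19 (0.41) were higher as well. Wt1 had the highest bound, with 131 counts at P2 and none at P10, which makes it at least 33.2-fold lower at P10. Lrrn4 (at least 17.7-fold lower), Upk1b (at least 7.85-fold) and Krt18 (at least 1.52-fold) were also at 0 in all P10 baseline libraries. Each of these 3 bounds rests on 1 library, P2 baseline replicate 1 for Lrrn4 (70 counts) and Krt18 (6 counts) and replicate 3 for Upk1b (31 counts), without which the gene had no count at either age. The counts of Wt1 came from P2 baseline replicates 1 and 2. None of these differences passed the quasi-likelihood test of edgeR, where the Benjamini-Hochberg adjusted p was 0.103 for Wt1 and 0.259 for Lrrn4. The ranges of both ages overlapped for every gene. Of all genes tested, 4.38% were called in this comparison (2.71% higher and 1.68% lower), 10.3% lay higher and 12.1% lower at P10 without overlap, and 18.7% had an unadjusted p under 0.05, as 2 of the 9 did. The median log2 fold change of the 9 genes, with those at 0 set to their bounds, was -2.33, against -0.03 over all genes tested. The call for Wt1 depended on the method, since DESeq2 gave an adjusted p of 0.00901 (log2 fold change -7.32) and edgeR without the filter 0.0121, within a range of 0.00901 to 0.266 over 11 alternatives. Limma voom with sample weights called Cdh3 (log2 fold change -4.67, adjusted p = 0.0406) where edgeR gave -1.43 ± 1.49 (SE). Other markers differed between these groups as well, since 3 of 8 fibroblast genes, Col3a1, Dcn and Lum (log2 fold changes 0.95, 1.02 and 1.12), and 3 of 8 mural cell genes, Rgs5, Kcnj8 and Myh11 (1.55, 1.97 and 3.58), rose at P10 in the same test, with edgeR adjusted p between 0.00209 and 0.0375. In each list 7 genes had a higher and 1 a lower fitted level at P10, the lower ones being Postn, at a mean of 7180 CPM at P10 and 13617 CPM at P2, and Acta2, at 633 and 709 CPM, and neither was called. The summed fibroblast markers were at 73502 to 116802 CPM at P10 and 55794 to 67922 CPM at P2. Cardiomyocyte markers had lower fitted levels at P10 in 10 of 10 cases, with a median log2 fold change of -1.28, 5 of them without overlap and none called. Their sum was 440 to 635 CPM at P10 and 946 to 1332 CPM at P2. What part these markers had in the levels of the 10 genes was not tested.

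Resection was compared with sham at P2, the age at which the heart still regenerates. The 9 genes split, with 4 at a higher and 5 at a lower fitted level after resection. Cdh3 was the only one without overlap, at 2.29 to 11.7 CPM in resected and 0 to 2.15 CPM in sham libraries, with a log2 fold change of 3.15 ± 1.57 (SE). Its adjusted p was 1 in edgeR's quasi-likelihood test. Of all genes tested, 5.62% lay higher and 2.85% lower after resection without overlap. Lrrn4 was at least 14.3-fold higher after resection, where 2 of 3 libraries had counts and no sham library did (adjusted p = 1 in the same edgeR test). Gpm6a pointed the other way with a log2 fold change of -3.28 ± 2.45 (SE), which rests on the 11.3 CPM of P2 sham replicate 2 and was -0.72 without that library. None of the 9 was called, and the share called among all genes tested was 0%. Before adjustment, 730 genes (4.51%) and none of the 9 had a p under 0.05. DESeq2 called 22 genes and none of the 9. The median log2 fold change of the 9 was -0.39, against 0 over all genes tested. Without P2 sham replicate 2, Upk3b, Upk1b, Krt8 and Krt19 turned from lower to higher after resection. Krt18 did so without P2 sham replicate 3 and Krt19 without P2 resected replicate 3, and Msln turned from higher to lower without P2 sham replicate 1, P2 sham replicate 3 or P2 resected replicate 1.

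P2 sham against P2 baseline showed what the operation and 3 more days of life did together, which cannot be told apart here. Krt8 was at least 22.8-fold higher after sham surgery, all of it in 1 library. Lrrn4 went the other way and was at least 22.9-fold lower, again from 1 library of baseline, and did not pass (edgeR adjusted p = 0.639). The ranges of all 10 genes overlapped, whereas 4.48% of all genes tested lay higher and 5.47% lower after sham surgery without overlap. Fitted levels were higher for 4 of the 9 genes and lower for 5, with a median log2 fold change of -0.33 (0.38 with Krt8) against 0.03 over all genes tested. Without P2 baseline replicate 1 Msln and Krt19 turned higher, without P2 sham replicate 1 Krt19 did, and without P2 sham replicate 2 Upk1b and Gpm6a turned lower. Among all genes tested 0% were called, and 1229 (7.6%) had an unadjusted p under 0.05, as 1 of the 9 did, Lrrn4. DESeq2 called 172 genes here and none of the 9.

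At P10, the age at which resection leaves a lasting scar, the 10 genes had the values that led to their choice, and no test is given. All 10 had a higher fitted level in resected than in sham libraries. For Wt1 this turned without P10 sham replicate 1 (log2 fold change -0.06) and with the replicate block (-0.07), from 0.52 with all libraries. Krt19 and Cdh3 were higher after resection without overlap, as were 5.63% of all genes tested, and the other 8 overlapped. For Krt19 this rests on 12 counts in the lowest resected and 13 in the highest sham library. None lay lower without overlap, against 3.04% of all genes tested. Cdh3 was at least 86.1-fold higher, Gpm6a at least 64.4-fold, Lrrn4 at least 40.7-fold and Krt8 at least 25.6-fold, all against sham libraries at 0. Without P10 sham replicate 1 these bounds were 55.7, 41.6, 26.3 and 16.6. Without P10 sham replicates 2 and 3 in turn that of Cdh3 was 62.6 and 53.9, and that of Krt8 18.6 and 16.0. Where sham libraries had counts, the ratio of mean CPM was 20.7 for Krt19, 20.6 for Upk1b, 8.81 for Upk3b, 8.30 for Krt18, 2.30 for Msln and 1.44 for Wt1. The median log2 fold change was 4.29, against 0.02 over all genes tested.

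Much of this came from P10 resected replicate 1. Without it 6 genes were still higher, 3 were lower and Gpm6a had no count in either group. The median log2 fold change of the 9 genes with a value was then 2.67, against 0 over all genes tested. The summed level was 2.78 instead of 6.99 times that of sham libraries. Sham libraries moved this ratio too, to 4.66 without P10 sham replicate 1 and to 13.8 without P10 sham replicate 2, where Msln came to 6.76 times the sham mean and Upk3b to at least 106 times. Without P10 sham replicate 3 the sum stayed at 7.04 times, and the ratio of Wt1 was 2.87. Upk1b and Krt19, whose sham counts all lay in that library, then came to at least 45.2-fold and at least 57.3-fold. Without P10 resected replicates 2 and 3 in turn the sum was 8.39 and 9.80 times that of sham libraries. The values that follow leave out P10 resected replicate 1. Wt1 went to 0.668 and Msln to 0.476 times the sham mean, and Krt18 had no count in the remaining resected libraries against 5 counts in sham. The ratio was 1.95 for Upk3b, 6.67 for Upk1b and 8.97 for Krt19. Krt8 stayed at least 13.9-fold, Lrrn4 at least 15.2-fold and Cdh3 at least 105-fold higher. Cdh3 was the gene whose difference rested least on that library, at 8.20 and 2.33 CPM in the other resected libraries. Counts were present in 12 of the 20 gene and library combinations of those libraries, against 8 of 30 in P10 sham. The number of all genes expected at the depth of the smallest library was 16753 and 16732 in P10 resected replicates 2 and 3. It was 15784, 15925 and 15707 in P10 sham.

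**Figure D4:**
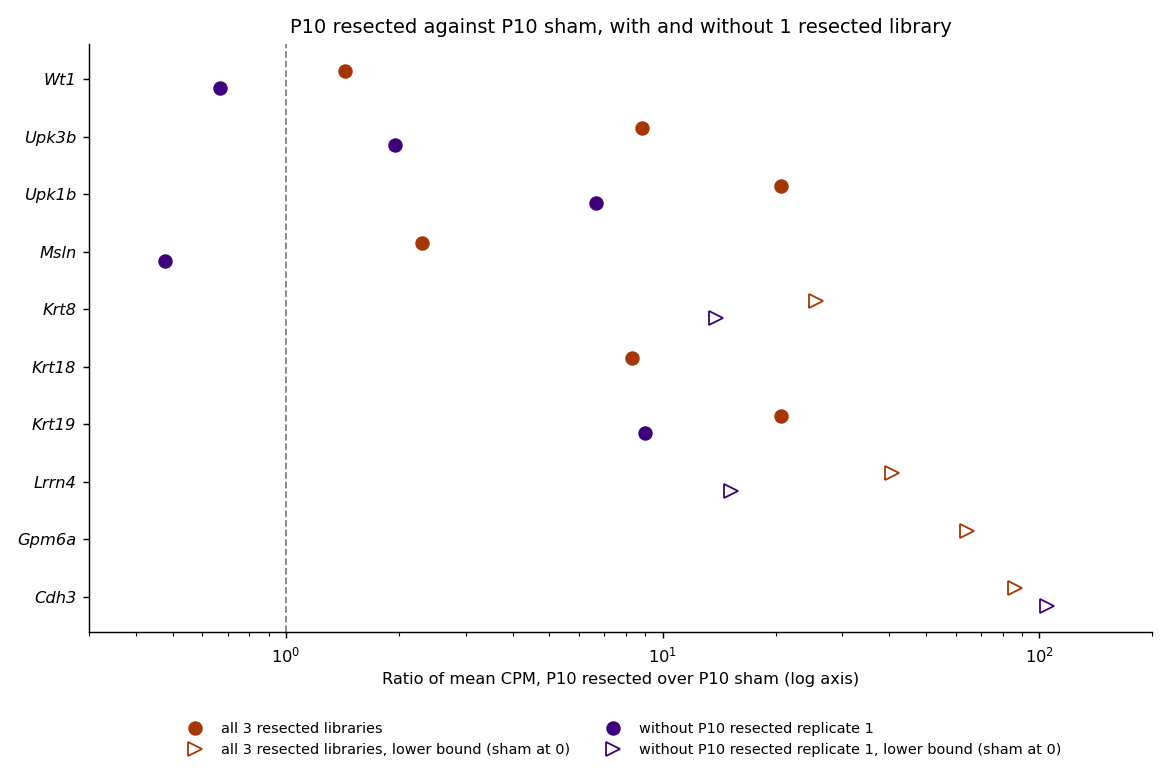
Ratio of mean CPM in P10 resected over P10 sham libraries for the 10 genes (log axis) with all 3 resected libraries (brown) and without P10 resected replicate 1 (purple). Circles are ratios and open triangles are lower bounds where sham libraries were at 0, and the dashed line marks equal levels. Wt1 and Msln fall below 1 without that library, whereas the bound of Cdh3 is at least 86.1 with it and at least 105 without it. Gpm6a has no purple mark because no count remained in either group. Krt18 has none because its ratio of 0, with 5 counts in sham and none in resected libraries, cannot be drawn on a log axis.

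The summed levels of P10 sham (0, 9.12 and 4.67 CPM) and P10 baseline (1.15, 2.78 and 7.20 CPM) overlapped. Mean sums at P10 and at P2 were 4.60 and 15.9 CPM for sham and 32.1 and 15.6 CPM for resected libraries. These contrasts share libraries with the one that led to the choice of genes and were not tested.

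Markers of other cells were also high in P10 resected replicate 1. The summed level of 8 endothelial markers there was 491 CPM, the highest of 18 libraries (lowest 173 CPM), with the vascular receptors Kdr (68.1 CPM) and Tie1 (44.0 CPM) and the adhesion proteins Cdh5 (22.5 CPM) and Emcn (17.1 CPM) all at their highest. By group that sum ran from 309 to 491 CPM in P10 resected, from 252 to 473 CPM in P10 sham and from 173 to 478 CPM at P2. Tek, the endothelial angiopoietin receptor, was above the other 7 markers together in every library other than P10 resected replicate 1, where it was at 221 CPM, and reached 454 CPM in P10 sham replicate 1. Without Tek the other 7 markers summed to 270.3 CPM in P10 resected replicate 1, again the highest of 18, to 53.6 and 79.5 CPM in P10 resected replicates 2 and 3, and to 18.9, 111 and 19.8 CPM in P10 sham. P2 resected replicate 1 came second at 226 CPM. In that library 10 macrophage markers summed to 395 CPM and the 10 genes of the set to 14.6 CPM. At P10, 7 of the 8 endothelial markers had a higher fitted level in resected than in sham libraries, with a median log2 fold change of 1.27. The same held for 10 of 10 macrophage markers (median 1.01), 9 of 10 cardiomyocyte markers (0.38), 5 of 8 fibroblast markers (0.06), 5 of 8 mural markers (0.04) and 1 of the 4 tested markers of lung and other epithelia (-0.77). The summed level of 10 macrophage markers was 407 CPM, second of 18 libraries after P10 resected replicate 2 (1010 CPM), and all 10 had counts in every P10 sham and P10 resected library. Fibroblast, mural and cardiomyocyte sums ranked 6, 7 and 11 of 18 there. Among 12 markers of lung and other epithelia, Krt5, Sftpb, Sftpa1, Scgb1a1 and Esrp1 were at 0 in every library and Epcam had 41 counts in all. Elf3 (1535 counts, mean 4.59 CPM), Cldn3 (675 counts) and Cldn7 (439 counts, present in every library) were the most abundant of that list. Its sum in P10 resected replicate 1 was 8.45 CPM, ranked 9. The number of genes expected at the depth of the smallest library was 18694 there, the third highest in a range of 15062 to 19510. Of all genes tested, 2.17% had their highest level in P10 resected replicate 1. What part these differences had in the levels of the 10 genes was not tested.

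The other epicardial and mesothelial genes, 33 in all and 28 of them tested, differed widely in level. Aldh1a2, the retinoic acid synthase of the epicardium, averaged 1119 CPM, with Gata4 at 310, Rarres2 at 224, Aldh1a1 at 129, C3 at 103 (40.9 without P10 resected replicate 3, which held 1168 CPM), Sema3d at 86.5, Gata6 at 85.6, Pdpn at 57.4 and Tbx18 at 53.8 CPM. Several of these genes are known from cardiac fibroblasts as well. At least 1 library was at 0 for 16 of the 33, C3 among them. In P10 baseline against P2 baseline, where 4.38% of all genes tested were called, 1 of the 28 was called, the epicardial transcription factor Tbx18, which fell from 80.8 ± 11.04 to 36.9 ± 13.1 CPM (SD, n = 3), a log2 fold change of -1.13 ± 0.30 (SE) with an adjusted p of 0.0391 in edgeR's quasi-likelihood test. Of the rest 15 had a higher and 11 a lower fitted level, and Slpi had no count at either age. None was called in the P2 comparisons, where 0% of all genes tested were. At P10, 22 were higher and 6 lower in resected than in sham libraries, with a median log2 fold change of 0.68, whereas 52% of all genes tested were higher, with a median of 0.02. Without P10 resected replicate 1 these were 20 and 8 with a median of 0.42, against 48.1% of all genes and a median of 0. P10 resected replicate 1 was the highest library for 8 of the 33, namely Dmkn (15.6 CPM), Podxl (30.6 CPM), Slpi (4.42 CPM), Krt7 (4.18 CPM), Gata5 (1.44 CPM), Muc16 (0.696 CPM), Ezr (52.9 CPM) and Hand2 (15.9 CPM), named because they share that library with 6 of the 10 genes.

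Genes of the epithelial to mesenchymal transition, by which epicardial cells turn into fibroblasts, were well expressed. Vim, the mesenchymal intermediate filament, averaged 1942 CPM, Zeb1 190 CPM, Zeb2 123 CPM and Tgfbr3 112 CPM. The epithelial cadherin Cdh1 had no count in any library. At P10 against P2 baseline 6 of the 8 tested had a lower fitted level and 2 a higher one (median log2 fold change -0.52), 3 lay lower without overlap, against 12.1% of all genes tested, and 4 had an unadjusted p under 0.05, against 18.7%. None of the 8 was called in this comparison, where 4.38% of all genes tested were, or in the P2 comparisons, where 0% were. At P10, 7 had a higher and 1 a lower fitted level in resected than in sham libraries. The median log2 fold change was 0.09, against 0.02 over all genes tested, and 3 lay higher without overlap, against 5.63%. Without P10 resected replicate 1, 5 were higher and 3 lower, with a median of 0.07 against 0.

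The levels of the 10 genes were set against each other over libraries. These correlations are a description, since the P10 sham and P10 resected libraries that chose the genes are among the 18. Over the 18 libraries, 43 of 45 pairs correlated positively in log2 CPM (prior count 2), with a median Pearson r of 0.41 and a highest r of 0.76 for Upk1b with Krt8. Wt1 was the least alike, at -0.14 with Gpm6a and -0.10 with Upk1b. With group means removed 36 pairs were positive (median 0.37), and without P10 resected replicate 1 the number was 41 (median 0.27). Over the 12 libraries of the other groups, leaving out all P10 sham and P10 resected libraries, 37 of 45 pairs were positive with a median of 0.26. These still include the pairs of Krt8, which passed the filter only through P10 resected, so this count is not free of the choice. Among the 3096 other tested genes within the same range of mean CPM, 55.1% of all pairs were positive in the 18 libraries and 54.6% in the 12. Their median r was 0.04 in the 18 and also in the 12 libraries. The mean level of the set correlated with total counts at r = 0.13 (rho = 0.003) and with the number of genes expected at equal depth at r = 0.54 (rho = 0.44, n = 18). What part detection had in the correlations between the genes was not tested. The genes most like the mean of the set over 18 libraries were Il2rg (r = 0.90), Hgh1 (0.81), Fam110c (0.77), Myo18a (0.76), Gm14150 (0.76), Gm12002 (0.76), Lrguk (0.75), Col2a1 (0.74), Gm5620 (0.71) and Atp6v0d2 (0.71). With group means removed they were Il2rg (0.85), Gm14150 (0.84), Hgh1 (0.83), Syp (0.83), 1110032F04Rik (0.82), Nkain4 (0.81), Gm41396 (0.81), Vasp (0.79), Wnt1 (0.79) and Slbp (0.79). Over the libraries other than P10 resected replicate 1, without removing group means, r was 0.85 for Il2rg, the receptor chain shared by several interleukins, 0.80 for Hgh1 and 0.45 for Gm5620.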

How the data were processed

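GFP+ cells from 18 samples were profiled by single-end RNA-seq of amplified RNA. The authors trimmed reads with fastp 0.20.0, mapped them with STAR 2.7.0f to GRCm38.p6 and counted them on exons of GENCODE M22 genes with featureCounts (Subread 1.6.4) without strand, and the deposited counts are whole numbers without normalization. Reads with several alignments, or on several genes, are not counted under the default settings. Counts of all groups were fitted together in edgeR 4.0.16 (R 4.3.3) with TMM scaling, 1 mean per group and filterByExpr (minimum count 10, minimum total 15), which kept 16170 of 55453 symbols. Quasi-likelihood p-values were adjusted over all genes tested and called under 0.05. DESeq2 1.42.0 (the study's methods name DESeq2, in an older version), limma voom 3.58.1, RLE scaling, no filter, a replicate block and leaving out each library were alternatives. Folds against a group at 0 are bounds set by 3 counts over the effective sizes of its libraries. Gene positions and exon lengths are from GENCODE M21 and promoters from RefSeq, which matched 5 of the 10 genes (Gpm6a, Krt18, Krt8, Lrrn4 and Upk3b). The code was tested on simulated data. A check for duplicated columns gave a chi-square per gene of 34.2 to 295 between replicates of a group. It sets replicates against counting noise alone, with amplified reads taken as independent, and nothing more is drawn from it.

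The 10 genes and all lists were chosen with earlier results of these data known. Named are the 10 genes, every called gene and up to 4 more of each list with the highest mean CPM, Tcf21 and Pdgfra, and the 10 genes most alike. Genes highest in P10 resected replicate 1, other marker values, Postn, Acta2, Elf3, Cldn3, Cldn7 and Cdh1 were named after their values were seen.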

Additional observations from a re-analysis of the deposited data

How the results depend on the processing

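With DESeq2 the number of genes called was 1674 at P10 against P2 baseline, 22 for P2 resected against P2 sham and 172 for P2 sham against P2 baseline. Without the filter it was 1155, 24 and 110, and with voom and sample weights 3645 at P10 against P2 baseline. In that comparison 1 of the 10 genes was called by DESeq2, by edgeR without the filter and by voom, and none under RLE scaling. Leaving out each library in turn gave 264 to 1207 genes at P10 against P2 baseline, 0 for P2 resected against P2 sham and 0 to 9 for P2 sham against P2 baseline, and no call among the 10. Leaving out P10 resected replicate 1, chosen after seeing the data, gave 592 genes at P10 against P2 baseline and none of the 10, and left 6 of the 10 higher at P10 after resection. The correlations without all P10 operated libraries were likewise added after seeing the data. Replicate numbers did not pair the samples, since 2 of 12 correlations of same-numbered deviations were over 0.1 (range -0.13 to 0.17). With the replicate block, 1 gene was called for P2 resected against P2 sham and none of the 10 in any comparison, and the log2 fold change turned for Upk3b (2.04) and Krt19 (0.41) at P10 against P2 baseline, for Krt8 (0.70) in P2 resected against sham and for Krt19 (0.21) in P2 sham against baseline. Voom turned Krt19 at P10 against P2 baseline (1.14), Upk3b (1.02), Upk1b (0.50) and Krt8 (1.91) in P2 resected against sham, and Upk3b (-0.63) and Krt19 (0.39) in P2 sham against baseline. Leaving out 1 library turned others. At P10 against P2 baseline the log2 fold change then ran from -6.51 to 4.12 for Upk3b, from -0.80 to 4.0 for Krt19 and from -2.72 to 0.10 for Gpm6a. In P2 resected against sham it ran from -1.96 to 0.47 for Upk3b, -3.46 to 5.68 for Upk1b, -0.59 to 8.46 for Msln, -1.92 to 6.03 for Krt8, -1.20 to 0.12 for Krt18 and -0.97 to 0.88 for Krt19. In P2 sham against baseline it ran from -6.47 to 8.01 for Upk1b, -9.0 to 0.31 for Msln, -1.61 to 3.87 for Krt19 and -1.48 to 2.12 for Gpm6a. None of these values passed the test, and the cause was not tested. At P10 after resection, where no test is given, the block turned Wt1 (-0.07). Of 314 fitted values of single genes in the tested comparisons, 283 kept their direction and side of the threshold. With 3 libraries a group and 47.8% of the values at 0, depth and spread limit what can be detected in these genes.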
